A study of Mus musculus with 185 samples.

Results

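Collagen VI, VIII, XII, XIV and XVI make up a small share of the collagen mass of a tissue, and they decide how the thick collagen I and III fibrils are spaced, bundled and tied to cells. Of the 17171 genes in the deposited single-cell table, 7 code for chains of these collagens: Col6a1, Col6a2, Col6a3, Col8a1, Col12a1, Col14a1 and Col16a1. They were picked by name, with earlier results of these data known, and each had exactly 1 line in the table. The study used inducible genetic lineage tracing to ask which cells of the mouse heart become myofibroblasts, the matrix-producing fibroblasts of a scar, after myocardial infarction (MI). Single interstitial cells were sorted, lodged on Fluidigm C1 chips and sequenced from amplified cDNA, and the table holds 152 cells from infarcts and 33 from hearts without injury. Values are log2 (TPM+1), where TPM is transcript abundance per unit of transcript length, scaled to the same total in every cell.

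Collagen VI is a heterotrimer of the chains encoded by Col6a1, Col6a2 and Col6a3, and its tetramers join end to end into beaded microfilaments close to the cell surface. Collagen VIII, of which Col8a1 encodes a chain, is a short-chain collagen that forms hexagonal nets and is known from basement membranes and remodelling vessel walls. Collagens XII, XIV and XVI, from Col12a1, Col14a1 and Col16a1, belong to the fibril-associated collagens with interrupted helices: they sit on or between fibrils rather than forming fibrils themselves, collagen XII mainly in tissue under tension and collagen XIV in contact with the proteoglycan decorin.

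All mice were adults of about 5 months, of the strain C57BL/6 (backcross N=6), and carried the R26-eGFP reporter, which is switched on permanently by Cre. In Postn MCM/+; R26-eGFP mice a tamoxifen-dependent Cre (MerCreMer) is driven from the periostin locus, and in Tcf21 MCM/+; R26-eGFP mice from the locus of Tcf21, a transcription factor of resident cardiac fibroblasts. Tamoxifen was given in the chow, MI was made by permanent ligation of the left coronary artery, and dead cells and cells with CD31 (endothelial) or CD45 (leukocyte) on their surface were gated out. From infarcts came 27 Postn-traced cells and 24 Postn-negative cells, which shared the capture named Jul29, 44 activated Tcf21-traced cells of the capture Nov4, and 29 untraced cells of the scar, of the capture Nov11. A further class of 28 untraced cells was labelled Postn+, with 6 cells in Jul29, 19 in Nov4 and 3 in Nov11. From hearts without injury came 17 resident Tcf21-traced cells, 12 resident CD31- CD45- cells, 3 Postn+ resident Tcf21+ cells and 1 Postn+ resident CD31- CD45- cell, all of the capture Jul24. For the resident CD31- CD45- cells the sources differ: the main account takes them from hearts without infarct, while a legend puts such control cells in the part of the heart remote from it. They are called uninjured here after the former. Recombination of the Postn allele was incomplete, so an eGFP-negative cell can still express Postn, and the labels Postn+ and Postn- of eGFP-negative cells rest on that expression. The traced cells are Postn-traced in Jul29 and Tcf21-traced in Nov4, so within the untraced Postn+ class untraced refers to different tracers. Because no label ties cells to mice, a class is treated as 1 sample, values come without a test, and an SD describes the spread between cells. Uninjured and infarct cells never shared a capture, and injury and capture cannot be told apart in any comparison between them.

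Cells differed in the number of genes above 5 TPM, a level at which the methods filter genes and which serves here as the detection minimum within a cell, and this number stands in for depth, which TPM does not keep. Its median was 3643 genes in the Postn-traced cells and 2342 in the Postn-negative cells of the same capture. It was 3134 in the activated Tcf21-traced class, 3177 in the untraced scar cells, 2264 in the resident Tcf21-traced cells and 2092 in the resident CD31- CD45- cells. The lowest value, 141 genes, belonged to an untraced scar cell.

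Markers of fibroblasts were near universal. Of a list of 6 such genes at least 3 passed the minimum in 181 cells and fewer in 4, of which 3 were untraced scar cells, and Dcn was the most abundant of them in all 9 classes. The same held for 0 cells with an endothelial list, 1 with an immune and myeloid list, 5 with a pericyte list, 2 with a cardiomyocyte list, 1 with an epicardial list and 1 with a Schwann cell list. The immune-marked cell was 1 of the 12 resident CD31- CD45- cells, a class in which the immune list summed to a mean of 766 TPM, led by Lyz2. It had only 2 fibroblast genes, and 6 of the 7 collagen genes were listed at 0 in it. The smooth muscle list, which holds the myofibroblast genes Acta2 and Tagln, had at least 3 genes in 22 cells, all from infarcts. Its summed mean was 753 TPM in the Postn-traced cells and 106 TPM in the Postn-negative cells, led by Tagln in the former and Smtn in the latter. It was 930 TPM in the untraced Postn+ cells, 465 TPM in the activated Tcf21-traced cells, 216 TPM in the untraced scar cells, 103 TPM in the resident Tcf21-traced cells and 49.5 TPM in the resident CD31- CD45- cells. Myh11, which defines smooth muscle cells, was above the minimum in no cell of the Postn-negative, untraced Postn+, activated Tcf21-traced and resident classes. Across the larger classes the sums of the smooth muscle list ran in a similar order to several of the collagen genes below. The 3 Postn+ resident Tcf21+ cells departed from this. Their sum was 349 TPM, all from Smtn, and none of them had Col8a1, Col12a1 or Col16a1 above 5 TPM. The part of this list in the differences of the collagen genes was not tested.

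Col6a1 was above 5 TPM in at least 75% of the cells of each larger class. Its class means lay within the spread between cells, though some comparisons below put it past 1 log2 unit. In the Postn-traced cells its log2 (TPM+1) ran from 0.00 through a median of 8.33 to 11.05, and in the Postn-negative cells from 0.00 through 7.78 to 10.85. In the activated Tcf21-traced cells the median was 8.41 with a highest cell at 10.51, and in the untraced scar cells 7.18 with a highest cell at 10.77. This scar cell had only 244 genes detected. The resident Tcf21-traced cells ran from 5.33 through 8.04 to 11.21, with no cell listed at 0. All 17 of them were above 5 TPM (exact 95% Clopper-Pearson interval from 80.5%, counting error only, as for all shares here), as were 9 of the 12 resident CD31- CD45- cells. Among the 7 classes of 12 or more cells the means fell between 6.22 ± 3.54 (SD, n = 12 cells) in the resident CD31- CD45- cells and 7.97 ± 1.65 (n = 17) in the resident Tcf21-traced cells, and none of their 21 pairs was further apart than the larger SD. The 3 Postn+ resident Tcf21+ cells had a mean of 8.40. Within the untraced Postn+ class the captures differed by more than the larger SD, with 4.96 ± 3.21 in the 6 cells of Jul29 and 8.50 ± 0.82 in the 19 of Nov4.

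Col6a2 varied less between the larger classes. Its mean was 7.23 ± 1.81 (SD, n = 27) in the Postn-traced cells, where the cells ran from 3.90 through a median of 7.46 to 10.01 and all 27 were above the minimum. It was 6.81 ± 2.67 (n = 24) in the Postn-negative cells, 6.83 ± 1.80 (n = 44) among activated Tcf21-traced cells and 6.89 ± 2.57 (n = 12) among resident CD31- CD45- cells. The means of the 7 larger classes spanned 1.15 log2 units, the narrowest span among the 7 genes, and here too 0 of 21 pairs stood further apart than the larger SD. The exception lay in the 3 Postn+ resident Tcf21+ cells, where Col6a2 was listed at 0 in 2 cells and at 7.40 in the other. Col6a1 was 6.91, 9.10 and 9.18 in those 3 cells.

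Col6a3, whose chain carries most of the large non-collagenous domains of the trimer, had the widest span of class means among these collagen VI chains. In the Postn-traced cells it ran from 0.00 through a median of 7.21 to 10.25, and 24 of 27 cells were above 5 TPM (88.9%, interval 70.8% to 97.6%). In the Postn-negative cells of the same capture it ran from 0.00 through 3.54 to 8.45, with 13 of 24 cells above the minimum (54.2%, interval 32.8% to 74.4%). The cells of the classes overlapped along most of this range, and the intervals met between 70.8% and 74.4%. Means were 6.18 ± 2.73 and 3.43 ± 3.30, a difference of 2.75 log2 units that lay within the larger SD. Untraced Postn+ cells had a mean of 5.41 ± 2.84 (n = 28), activated Tcf21-traced cells 4.96 ± 3.31 (n = 44), resident CD31- CD45- cells 4.66 ± 3.32 (n = 12), resident Tcf21-traced cells 4.22 ± 3.60 (n = 17) and untraced scar cells 4.07 ± 3.41 (n = 29). No neighbours in this order differed beyond their spread.

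**Figure D1:**
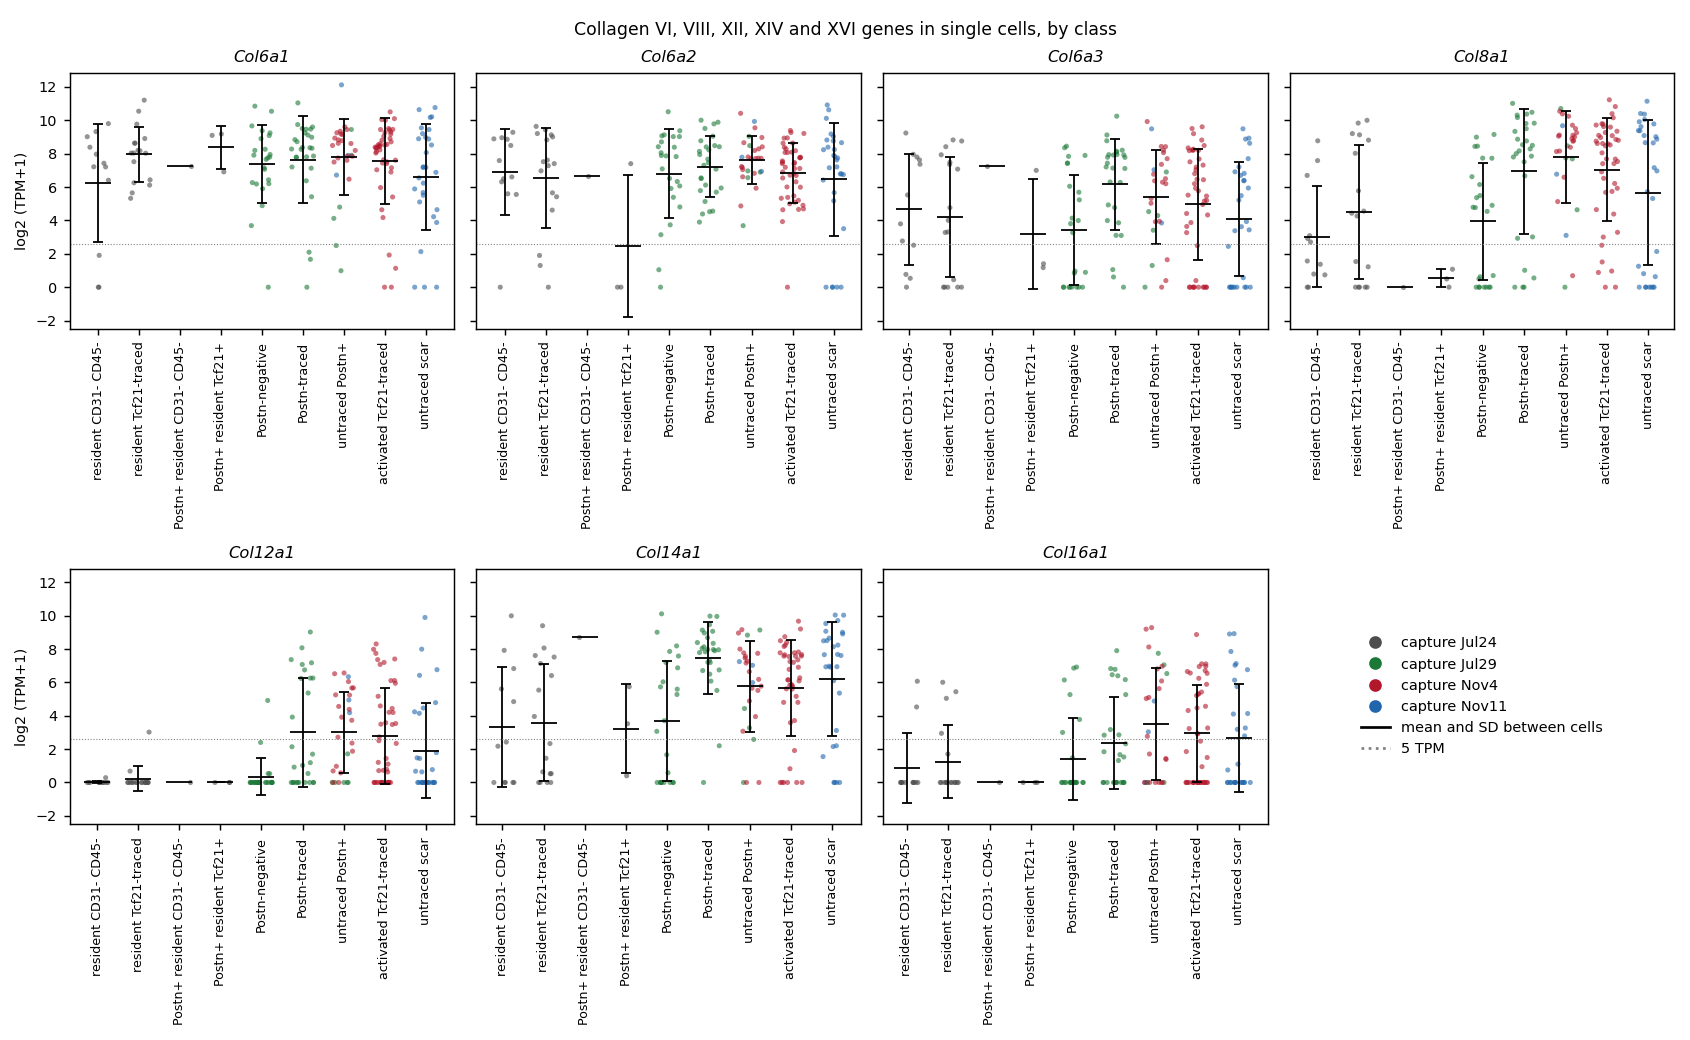
Log2 (TPM+1) of the 7 genes in every cell, by class along the x axis, with points coloured by capture, a bar for the class mean and whiskers of 1 SD between cells; the dotted line marks 5 TPM. Col6a1 and Col6a2 lie high in all larger classes, while Col12a1 has a single cell above the line among the 33 uninjured cells and 1 among the 24 Postn-negative cells.

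A collagen VI trimer joins the Col6a1 and Col6a2 chains with that of Col6a3 or of a related gene such as Col6a6, and the joint presence of the 3 chains studied here was counted cell by cell. All 3 were above 5 TPM in 126 cells of the table (68.1%, interval 60.9% to 74.8%). The share was 85.2% in the Postn-traced cells (23 of 27, interval 66.3% to 95.8%) and 54.2% in the Postn-negative cells (13 of 24, interval 32.8% to 74.4%). It was 72.7% in the activated Tcf21-traced cells (32 of 44), 78.6% in the untraced Postn+ cells (22 of 28), 62.1% in the untraced scar cells (18 of 29), 58.8% in the resident Tcf21-traced cells (10 of 17) and 58.3% in the resident CD31- CD45- cells (7 of 12). The gap between the classes of the shared capture went with a difference in genes detected, 3643 against 2342 at the median, and the part of depth in it was not tested. Where a chain was missing it was nearly always Col6a3: of the 38 cells with exactly 2 chains, 33 lacked Col6a3, 3 lacked Col6a1 and 2 lacked Col6a2. Among the 16 cells with a single chain, 7 held Col6a1, 9 held Col6a2 and 0 held Col6a3.

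Among cells with all 3 chains, the balance of transcripts leaned the same way. TPM is per length, so the genes were set side by side. The longest annotated transcripts have 4100 bases for Col6a1, 4912 for Col6a2 and 10106 for Col6a3, and the part of length in these shares was not tested. At the median over the 126 cells, Col6a1 gave 44.8% of the summed TPM of the chains (quartiles 32.8% and 62.9%), Col6a2 28.8% (16.8% and 43.8%) and Col6a3 16.5% (5.83% and 30.6%). Col6a1 was the most abundant chain in 72 of these cells, Col6a2 in 37 and Col6a3 in 17. The median share of Col6a3 was 21.1% in the Postn-traced cells and 8.31% in the Postn-negative cells, with lower quartiles of 10.6% and 2.14%, and the quartile ranges overlapped.

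**Figure D2:**
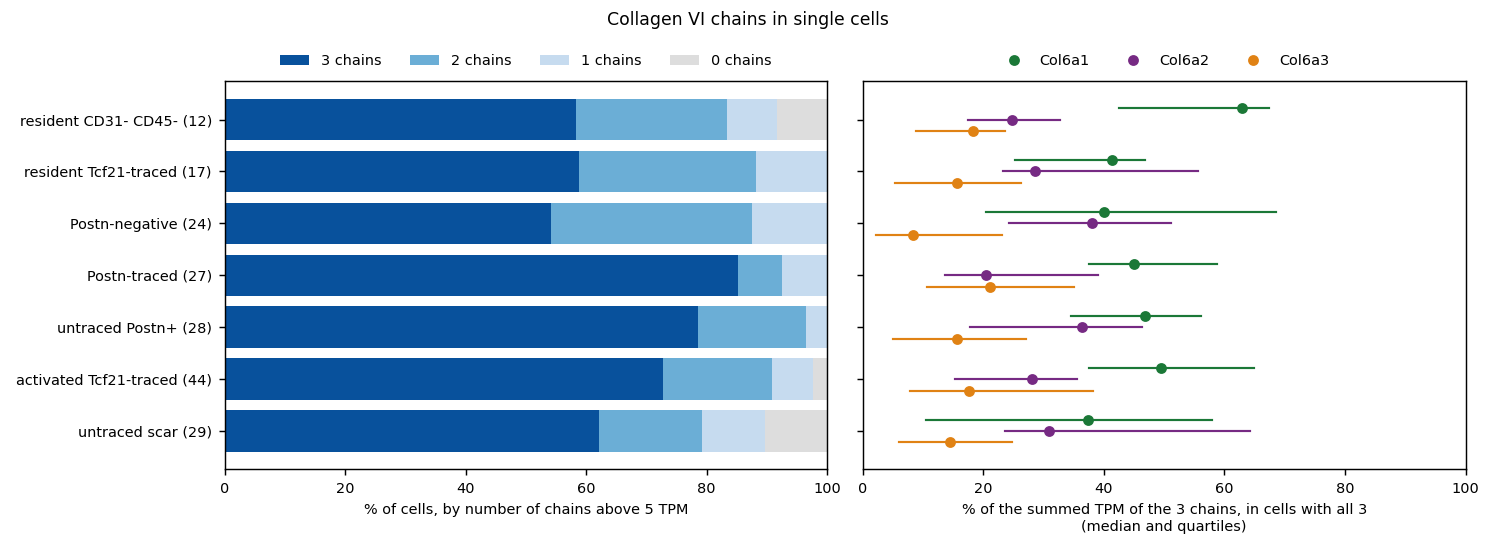
Left, percentage of the cells of each class, with its number of cells, that had 3, 2, 1 or 0 collagen VI chains above 5 TPM. Right, share of each chain in the summed TPM of the chains, as median (point) and quartiles (line) over cells with all 3; Col6a3 is the lowest share in all 7 classes but the Postn-traced cells, where it is 21.1% beside 20.4% for Col6a2.

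The chains also moved together between cells. Likeness was taken as Spearman's rho over the cells of a class, averaged over the 7 classes of 12 or more cells, and ranked over the tested genes, which are the 7843 genes above 5 TPM in at least 10% of all cells. All 7 collagen genes were among them. The gene most like Col6a1 was Col6a2, with a mean rho of 0.414 (0.274 to 0.628 across the classes), followed by Col6a3 at 0.355 and a transcript listed without a gene symbol at 0.334. Col6a2 and Col6a3 reached 0.363, and Hspg2, which encodes the basement membrane proteoglycan perlecan, lay between the other chains in the list of Col6a2 at 0.384. For Col6a3 the leading genes were Enpp1 at 0.396 and Col3a1 at 0.393, while Col6a1 came first with cells centred on the median of their detected genes. Cells of a class share a capture, other than the untraced Postn+ cells, which come from 3. Each cell enters with its own depth, and the correlations are moderate, so they are given as a description. The genes named by likeness, here and below, are the top 3 picked from 7843. How high such picked values run among unrelated genes was not tested. Col6a1 and Col6a2 were each other's first gene also with cells centred on the median of their detected genes (0.478) and over all cells at once (0.395).

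Col6a2 (chr10:76595762-76623630, minus strand, GENCODE annotation of GRCm38) and Col6a1 (chr10:76708792-76726168, minus strand) are neighbours, 85.2 kb apart and read in the same direction, while Col6a3 (chr1:90765923-90843971, minus strand) lies on another chromosome. Since the levels of these chains were correlated across cells, the 250 bases before their starts are shown, 5' to 3' on the coding strand, from RefSeq (GRCm38.p6). Capitals mark matches on either strand to 5 motifs: the TATA box TATAAA, the GC box GGGCGG, the CCAAT box CCAAT, the AP-1 motif TGANTCA and the MCAT motif CATTCC.
Col6a1 (chr10:76726045-76726294, minus strand): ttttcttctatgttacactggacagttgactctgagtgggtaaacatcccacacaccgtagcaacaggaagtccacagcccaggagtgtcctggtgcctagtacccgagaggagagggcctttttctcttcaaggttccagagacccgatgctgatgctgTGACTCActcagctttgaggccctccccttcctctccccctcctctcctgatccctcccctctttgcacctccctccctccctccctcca
Col6a2 (chr10:76623631-76623880, minus strand): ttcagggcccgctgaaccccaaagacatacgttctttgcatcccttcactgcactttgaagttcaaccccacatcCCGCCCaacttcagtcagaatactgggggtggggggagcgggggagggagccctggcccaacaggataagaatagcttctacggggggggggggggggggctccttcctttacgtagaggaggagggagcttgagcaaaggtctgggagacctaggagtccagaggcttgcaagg
Col6a3 (chr1:90843972-90844221, minus strand): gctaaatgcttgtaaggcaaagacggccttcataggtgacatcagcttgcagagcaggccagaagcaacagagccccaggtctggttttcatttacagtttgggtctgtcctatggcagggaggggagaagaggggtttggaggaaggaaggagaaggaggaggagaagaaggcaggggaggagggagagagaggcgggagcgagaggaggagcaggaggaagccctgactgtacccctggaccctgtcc
The windows held no motif in common. That of Col6a1 had 1 AP-1 match, which 6.75% of the 32851 RefSeq promoters of this length have, that of Col6a2 had 1 GC box, which 32.7% have, and that of Col6a3 had none of the 5. The RefSeq start of Col6a1 lies inside the gene as GENCODE gives it, so 124 of the 250 bases printed, the AP-1 match among them, are within that gene. Col6a2 has a second listed start, chr10:76623405-76623654, with 3 GC boxes, of which 2 overlap by 2 bases, and 1 MCAT match, and 226 bases of that window, all 4 matches included, also lie within the gene. Outside collagen VI, the promoter of Col8a1 (chr16:57754738-57754987, minus strand) had 4 GC boxes and that of Col16a1 (chr4:130047590-130047839, plus strand) 1 GC box and 1 CCAAT box. Col12a1 and Col14a1 had no entry. The TATA, CCAAT and MCAT letters occur in 12.4%, 33.8% and 12.6% of all promoters. A match to so few letters is a description of the sequence and not a binding site.

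Col8a1 (chr16:57624258-57754737, minus strand) separated the classes more widely. In the Postn-traced cells it ran from 0.00 through a median of 8.29 to 11.02, in the untraced Postn+ cells from 0.00 through 8.77 to 10.71, and in the activated Tcf21-traced cells from 0.00 through 8.26 to 11.23. In the Postn-negative cells the median was 4.78 and the highest cell 9.15, among resident CD31- CD45- cells 2.14 and 8.78, and the resident Tcf21-traced class had a median of 4.43. The ranges of all 7 larger classes overlapped, the highest cell of each being at 8.78 or above. Untraced scar cells were divided, with 18 of 29 above the minimum, 7 listed at 0 and a median of 9.23 among those detected. Scar cells with few genes detected stood at both ends. Those with 141 and 264 genes were at 11.15 and 10.37, and those with 188, 218 and 244 genes at 0. Means of the 7 larger classes ranged from 7.80 ± 2.75 (SD, n = 28) in the untraced Postn+ cells to 3.02 ± 3.03 (n = 12) in the resident CD31- CD45- cells. Of 21 pairs of classes 4 were further apart than the larger SD: the untraced Postn+, the activated Tcf21-traced and the Postn-traced cells over the resident CD31- CD45- cells, and the untraced Postn+ over the Postn-negative cells. The last pair crosses captures. Within Jul29 Col8a1 was 6.54 ± 3.75 in the 6 untraced Postn+ cells and 3.96 ± 3.51 in the Postn-negative cells, which lies within the larger SD. In the 4 Postn+ resident cells it was above 5 TPM in none, with a highest value of 1.07. The genes most like it within classes were Meox1, a homeobox gene, at a mean rho of 0.455, Ctgf, a matricellular growth factor gene, at 0.410, and Fibin at 0.390. Ctgf came first with cells centred (0.477) and over all cells (0.574). Meox1 was not in the top 3 over all cells, and Fibin was in it under neither of these measures.

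Col12a1 (chr9:79598991-79718831, minus strand) was the gene with the fewest cells above the minimum, and these lay almost wholly in infarcts. It was detected in 1 of 33 uninjured cells (3.03%, interval 0.0767% to 15.8%), at 3.02 in a resident Tcf21-traced cell, and in 0 of the 12 resident CD31- CD45- cells, which allows a share of up to 26.5%. In the infarct it was detected in 1 of 24 Postn-negative cells (4.17%, interval 0.105% to 21.1%), against 54 of the 128 cells of the other 4 infarct classes (42.2%, interval 33.5% to 51.2%). The share was 53.6% in the untraced Postn+ cells (15 of 28), 45.5% in the activated Tcf21-traced cells (20 of 44), 40.7% in the Postn-traced cells (11 of 27) and 27.6% in the untraced scar cells (8 of 29). Within the capture Jul29 the interval of the Postn-traced cells began at 22.4%, above the end of that of the Postn-negative cells, though the 6 untraced Postn+ cells of this capture held 0 cells above 5 TPM, which allows up to 45.9%. Where detected, the median was 6.75 in the Postn-traced cells and 5.56 in the activated Tcf21-traced cells, and the highest cell of all, at 9.89, was an untraced scar cell. All classes reached down to cells listed at 0, and the median over all cells was 1.19 in the Postn-traced, 3.22 in the untraced Postn+ and 1.89 in the activated Tcf21-traced class. The mean was 2.77 ± 2.87 (SD, n = 44) in the last of these and 0.35 ± 1.09 (n = 24) in the Postn-negative cells. Of 21 pairs of classes 3 lay further apart than the larger SD, the untraced Postn+ cells over the Postn-negative cells and over either larger resident class. The untraced Postn+ mean pools captures, with 3.51 in the 19 cells of Nov4 and 5.16 in the 3 of Nov11. Within Jul29, Col12a1 had means of 0.29 in the 6 untraced Postn+ cells and 0.35 in the Postn-negative cells, so the gap was absent there. Its most alike genes, Eif2ak1, Tagap1 and Cmc1 at 0.366, 0.365 and 0.343, rest partly on classes in which Col12a1 was listed at 0 in nearly every cell, and none of them was among its top 3 under either of the other measures.

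Col14a1 (chr15:55307750-55520803, plus strand) showed the widest gap of log2 means between the Postn-traced and Postn-negative cells of 1 capture. In the Postn-traced cells it ran from 0.00 through a median of 7.95 to 9.97, with 25 of 27 cells above the minimum (92.6%, interval 75.7% to 99.1%). In the Postn-negative cells it ran from 0.00 through 3.38 to 10.11, with 13 of 24 above it (54.2%, interval 32.8% to 74.4%). The intervals did not meet, while single Postn-negative cells reached the top of the Postn-traced range. Means were 7.44 ± 2.15 and 3.69 ± 3.59, and the difference of 3.76 log2 units exceeded both SDs, the only one among the 7 genes to do so in this comparison. Of all tested genes 99.2% had a lower difference. The share of them that exceeds both SDs is not given here, for this or any other comparison. Of the larger classes, untraced scar cells came next at 6.19 ± 3.42 (n = 29), then untraced Postn+ cells at 5.76 ± 2.72 (n = 28), activated Tcf21-traced cells at 5.67 ± 2.87 (n = 44), resident Tcf21-traced cells at 3.59 ± 3.49 (n = 17) and resident CD31- CD45- cells at 3.32 ± 3.60 (n = 12). The 3 pairs of classes beyond the larger SD were the Postn-traced cells over the Postn-negative and over either larger resident class. Col3a1 was the gene most like Col14a1 within classes, at a mean rho of 0.450, and stayed so with cells centred (0.485) and over all cells (0.592). Emilin1, which encodes an elastic fibre glycoprotein, followed at 0.357 and Anpep at 0.349.

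Col16a1 (chr4:130047840-130099283, plus strand) was low and scattered. It was listed at 0 in 97 cells and above 5 TPM in 72 (38.9%, interval 31.9% to 46.3%). The share ran from 53.6% in the untraced Postn+ cells (15 of 28) and 22 of 44 activated Tcf21-traced cells (interval 34.6% to 65.4%) down to 23.5% in the resident Tcf21-traced cells (4 of 17, interval 6.81% to 49.9%) and 16.7% in the resident CD31- CD45- cells (2 of 12, interval 2.09% to 48.4%). It was found in 10 of 27 Postn-traced cells (interval 19.4% to 57.6%) and in 6 of 24 Postn-negative cells (interval 9.77% to 46.7%). Means of the 7 larger classes ran from 3.53 ± 3.35 (n = 28) to 0.88 ± 2.09 (n = 12), and the gene was listed at 0 in all 4 Postn+ resident cells, with no pair of the larger classes further apart than the larger SD. For none of the 7 genes did neighbours in the order of class means differ by more than the larger SD. Within classes, Col16a1 was the member that tracked the number of genes detected most closely, at a mean rho of 0.346, against 0.231 for Col6a3, 0.180 for Col14a1, 0.174 for Col8a1, 0.095 for Col6a1, 0.091 for Col12a1 and 0.027 for Col6a2. Over all cells, where classes of different depth are pooled, Col12a1 came first at 0.476, before Col16a1 (0.417), Col8a1 (0.364), Col14a1 (0.358), Col6a3 (0.346), Col6a1 (0.124) and Col6a2 (0.049). Metap2, Tpm1 and Phb2 led its list, at 0.365, 0.365 and 0.362, and none was in its top 3 under the other measures.

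**Figure D3:**
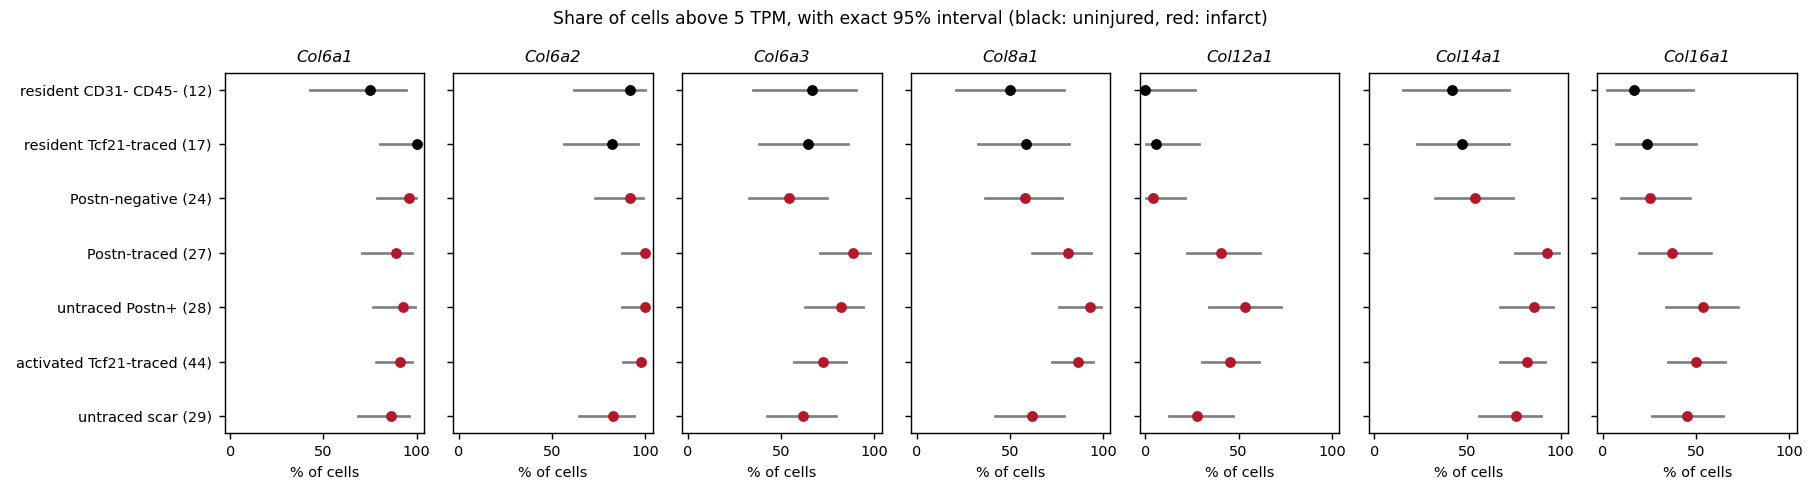
Percentage of cells above 5 TPM for each gene (points; black for uninjured and red for infarct classes) with the exact 95% interval as a grey line, for the 7 classes of 12 or more cells, whose numbers of cells stand in parentheses. Col14a1 is at 92.6% in the Postn-traced and 54.2% in the Postn-negative cells, and Col12a1 is under 6% in both resident classes and the Postn-negative cells.

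The first comparison set Postn-traced against Postn-negative cells of the same infarct capture. These classes differ by label in Postn expression as well as in tracing, since the untraced Postn+ cells of the capture form a class apart. They also differ in genes detected, 3643 against 2342 at the median. Past 1 log2 unit, 4 of the 7 genes were higher with tracing: Col14a1 by 3.76, Col8a1 by 2.98, Col6a3 by 2.75 and Col12a1 by 2.65. Col16a1 differed by 0.95, Col6a2 by 0.43 and Col6a1 by 0.27, and 0 genes were lower by that much. Beside them 31.9% of all 7843 tested genes were higher and 4.42% lower by that measure, so a lean towards the traced cells was general. The median difference was 2.65 over the 7 genes and 0.58 over all tested genes. All 4 stayed more than 1 log2 unit higher under each of the 6 other planned settings that changed values or cells of this comparison, including the addition of the 6 untraced Postn+ cells to the negative side. The share of tested genes that were higher ran from 16.1% with a pseudocount of 5 to 49.9% with one of 0.1 and 55.1% with cells centred on the median of their detected genes. In the latter 2 settings 5 of the 7 genes passed, so the members then stood less far from the general share. Their order depended on the scale: with linear means Col12a1 led at 4.65, before Col8a1 at 2.24, Col6a3 at 1.47 and Col14a1 at 1.36. Among cells with 2000 to 3000 detected genes, a range that held only 5 traced and 20 negative cells and was chosen after the data were seen, Col14a1 was higher by 1.81, Col12a1 by 1.30, Col6a2 by 1.07 and Col8a1 by 0.15, while Col16a1 (-0.61), Col6a3 (-0.87) and Col6a1 (-1.76) were lower. Of the tested genes 20% were then more than 1 log2 unit higher and 24.2% lower.

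In the Tcf21 lineage, infarct cells were compared with cells of uninjured hearts, which asks what resident fibroblasts express once activated. Activated cells exceeded resident cells by over 1 log2 unit in 4 of 7 genes, beside 33.4% of the tested genes, and fell short by as much in 0, beside 4.72%. They were Col12a1 (2.56), Col8a1 (2.53), Col14a1 (2.07) and Col16a1 (1.70), while Col6a3 differed by 0.74, Col6a2 by 0.30 and Col6a1 by -0.41. The median was 1.70 over the 7 genes and 0.62 over all tested genes. On the linear scale Col12a1 and Col16a1 were the 2 genes past 1 log2 unit, beside 32.6% of the tested genes higher and 21.1% lower, and among cells with 2000 to 3000 genes, 17 activated and 11 resident, they were Col12a1 at 1.79 and Col14a1 at 1.12, beside 17.9% higher and 14.8% lower. The linear count of 2 in 7 lies near its share of higher genes. No difference in this comparison exceeded both SDs.

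Postn-traced cells set against the same resident Tcf21-traced cells gave a similar list, with 5 of 7 genes higher, beside 38.1% of the tested genes, and 0 lower, beside 4.51%. This comparison shares its resident cells with the one before, so it is no separate evidence. Col14a1 was 3.85 higher, Col12a1 2.78, Col8a1 2.42, Col6a3 1.96 and Col16a1 1.10, and Col14a1 alone exceeded both SDs. The median was 1.96 against 0.71 over all tested genes. Col6a3 came to 0.74 with linear means and Col16a1 to 0.67 with a pseudocount of 5. Among the 5 traced and 11 resident cells with 2000 to 3000 genes, Col12a1 (1.42), Col14a1 (2.40) and Col6a2 (1.26) were higher, whereas Col6a1 (-2.22), Col6a3 (-1.99), Col8a1 (-1.18) and Col16a1 (-1.05) were lower, beside 20.2% and 26.3% of the tested genes.

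Activated cells of the Tcf21 and Postn lineages were closer to each other. Between activated Tcf21-traced and Postn-traced cells 0 of 7 genes were more than 1 log2 unit higher, beside 6.73% of the tested genes, and 2 were lower, beside 11.4%: Col14a1 at -1.78 and Col6a3 at -1.22. The other 5 lay within 1 log2 unit, among them Col12a1 (-0.23), Col8a1 (0.11) and Col6a1 (-0.09). The median was -0.23 over the 7 genes and -0.09 over all tested genes. The classes come from separate captures. Col14a1 passed 1 log2 unit under all 5 other planned settings that changed values or cells here and Col6a3 under 3 of them, and among the 17 Tcf21-traced and 5 Postn-traced cells with 2000 to 3000 genes Col6a1 (1.61), Col6a3 (1.44) and Col8a1 (1.30) were higher in the former, and Col14a1 (-1.29) and Col6a2 (-1.22) lower, beside 27.4% and 17.8% of the tested genes.

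Infarct cells labelled negative for Postn were also compared with uninjured cells. Postn itself was above 5 TPM in 3 of the 24 Postn-negative cells, at 4.41 or less on the log2 scale, and in 3 of the 12 resident CD31- CD45- cells, at 2.87 or less. Postn-negative cells compared with resident CD31- CD45- cells had 1 of 7 genes higher, beside 19.9% of the tested genes, namely Col6a1 at 1.15, and 1 lower, beside 9.09%, namely Col6a3 at -1.23. The other 5 lay within 1 log2 unit, as did 71% of the tested genes, so these counts are near the general shares. Col8a1 differed by 0.94, Col16a1 by 0.51, Col14a1 by 0.37, Col12a1 by 0.33 and Col6a2 by -0.08, and the median was 0.37 against 0.25 over all tested genes. Col6a1 stayed past 1 log2 unit under 2 of the 6 other planned settings that changed values or cells. It came to 0.45 with medians, 0.47 with linear means, 0.81 with a pseudocount of 5 and 0.67 with all eGFP-negative cells of the capture, and among cells with 2000 to 3000 genes it turned to -0.20. With only cells of at least 3 fibroblast genes, a setting added after the data were seen that leaves out the resident cell with immune markers, it was 0.59 and Col6a3 -1.65. Col6a3 came to -0.82 with linear means, -0.84 with a pseudocount of 5 and -2.05 among cells with 2000 to 3000 genes. Col8a1 was 1.60 in that range, where 18.1% of the tested genes were higher and 14.3% lower. Under the planned settings Col8a1 ran from 0.67 with a pseudocount of 0.1 to 2.64 with medians.

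**Figure D4:**
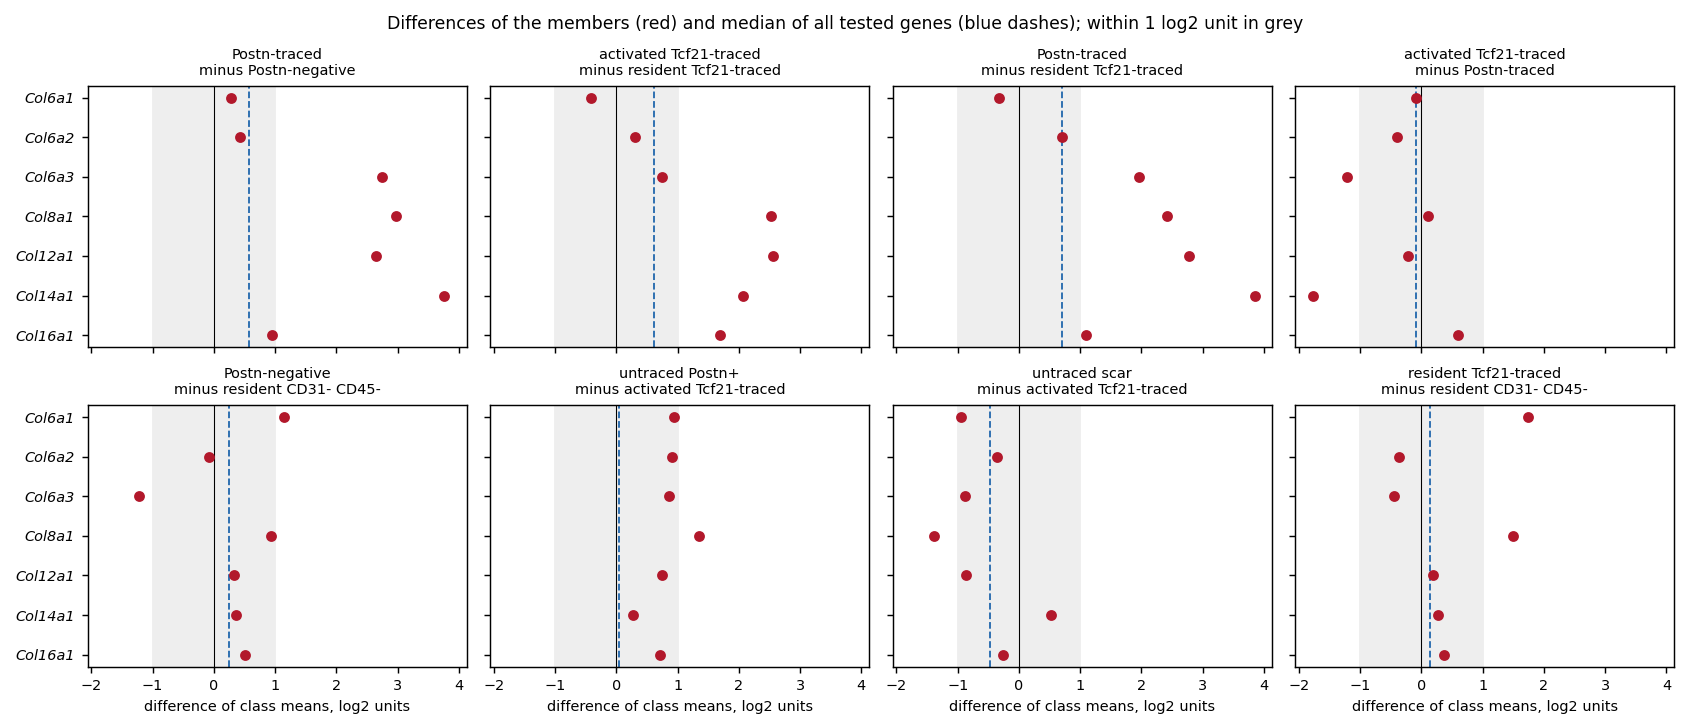
Difference of class means in log2 units (x axis) for the 7 genes (red points) in the 8 comparisons, with the median over all 7843 tested genes as a blue dashed line and the span within 1 log2 unit in grey. Col14a1 lies furthest right in both comparisons in which Postn-traced cells are set against Postn-negative or resident Tcf21-traced cells, at 3.76 and 3.85.

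Within the capture Nov4, untraced Postn+ cells could be compared with activated Tcf21-traced cells. All 7 genes had a higher mean of log2 values in the 19 untraced cells, by 0.27 to 1.35. Of all tested genes, 62.9% lay below the smallest of these differences and 96.0% below the largest. Past 1 log2 unit 1 gene was higher, Col8a1, beside 9.14% of the tested genes, and 0 were lower, beside 6.59%. With linear means Col12a1 turned to -0.57, Col8a1 came to 0.41, and the gene past 1 log2 unit was Col16a1 at 1.30, beside 14.2% higher and 22.4% lower. With medians it was Col12a1 at 2.03, beside 14% higher, and Col8a1 came to 0.75. The median was 0.86 against 0.04. Postn was above 5 TPM in 39 of 44 activated Tcf21-traced cells and in all 28 untraced Postn+ cells, a class labelled by its Postn, so the classes were not chosen alike. With untraced Postn+ cells of all captures 0 genes passed, and with each cell centred on the median of its detected genes 4 did, where 15.9% of the tested genes were higher and 3.26% lower.

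Untraced scar cells set against activated Tcf21-traced cells had 0 of 7 genes higher, beside 1.96% of the tested genes, and 1 lower, beside 26.3%, Col8a1 at -1.38. Col14a1 differed by 0.52 while the other 5 lay between -0.26 and -0.95, with a median of -0.86 over the 7 genes and -0.48 over all tested genes. The class held 6 cells with under 50% of the median genes of their capture. Without them 0 genes were lower and Col14a1 was higher by 1.31, with 7.38% of the tested genes higher and 12.6% lower. The direction of Col8a1 was not stable either: it was 0.043 with linear means and 1.23 among the 6 scar and 17 activated Tcf21-traced cells with 2000 to 3000 genes. Of the cell type lists, 3 of 6 smooth muscle and 2 of 6 fibroblast genes were lower past 1 log2 unit in the scar cells. In the epicardial list 1 of 6 was higher, and no gene of the other lists passed. The pericyte list summed to a mean of 330 TPM in scar and 142 TPM in activated Tcf21-traced cells. The part of these lists was not tested.

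Between the resident classes of the capture Jul24, 2 of 7 genes were higher in Tcf21-traced than in CD31- CD45- cells, Col6a1 by 1.75 and Col8a1 with means of 4.52 and 3.02, beside 16.5% of the tested genes, and 0 were lower, beside 11.8%. The median was 0.28 against 0.14 over all tested genes. Col6a1 fell within 1 log2 unit with medians (0.72), with linear means (0.80) and among the 11 and 9 cells with 2000 to 3000 genes (0.25), and stayed past it under the other 3 planned settings that changed values. With cells of at least 3 fibroblast genes only, it was 1.18. Col8a1 stayed past 1 log2 unit under all of these settings.

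Counted per cell, the 7 genes were most numerous in the infarct classes other than the Postn-negative cells. The median cell held 6 of them above 5 TPM in the Postn-traced, untraced Postn+ and activated Tcf21-traced classes, 5 in the untraced scar class, and 4 in the Postn-negative and both larger resident classes. The number of all genes detected ran the same way, with medians of 3134 or more in the former classes and of 2342 or less in the latter, and its part in these counts was not tested. All 7 were present in 24 cells, of which 9 were activated Tcf21-traced, 8 untraced Postn+, 5 untraced scar and 2 Postn-traced cells. Of the 56 cells with Col12a1, 51 had Col14a1 (91.1%), 51 had Col8a1 (91.1%) and 32 had Col16a1 (57.1%), which are 37.5% of the 136 cells with Col14a1, 38.1% of the 134 with Col8a1 and 44.4% of the 72 with Col16a1. In the 4 infarct classes that held 54 of these 56 cells, 83.6% of all cells had Col14a1, 81.2% had Col8a1 and 46.9% had Col16a1, so the shares beside Col12a1 were not far above those of all such cells. Within classes the mean rho was 0.186 for the levels of Col8a1 and Col12a1, -0.020 for Col12a1 and Col14a1 and -0.074 for Col8a1 and Col14a1.

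The balance of these collagens with the fibrillar ones differed between classes. Summed over the 7 genes, the median cell held 1631 TPM in the Postn-traced class and 785 TPM in the Postn-negative class, while Col1a1, Col1a2 and Col3a1 together stood at 9903 TPM and 1162 TPM. The 7 genes came to 16.1% of that fibrillar sum in the median Postn-traced cell and to 64.7% in the median Postn-negative cell. The figure was 23.8% in the untraced Postn+ cells, 23.9% in the untraced scar cells, 31.4% for activated Tcf21-traced cells, 42.2% for resident CD31- CD45- cells and 70.2% for resident Tcf21-traced cells. In the first comparison 5 of the 6 fibrillar genes, beside 31.9% of the tested genes, passed 1 log2 unit towards the Postn-traced cells: Col1a1 (3.90), Col5a1 (3.85), Col5a2 (3.77), Col3a1 (3.55) and Col1a2 (2.81). Col5a3 had means of 2.76 and 2.53. The median of the list was 3.66, against 2.65 for the 7 genes, although Col14a1 at 3.76 lay above Col3a1 and Col1a2. In 3 of the 8 comparisons the fibrillar median was the lower one: -1.12 against -0.23 for activated Tcf21-traced against Postn-traced cells, -0.55 against 0.37 for Postn-negative against resident CD31- CD45- cells, and -0.09 against 0.28 between the resident classes.

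Close relatives of the 7 genes were low. Of the other microfibrillar and short-chain collagens, 4 of 5 were listed in the table, and Col8a2, which encodes the partner chain of collagen VIII, was the only one past 1 log2 unit in the first comparison, beside 31.9% of the tested genes, at 1.56 ± 2.22 in the Postn-traced and 0.12 ± 0.60 in the Postn-negative cells. It was listed at 0 in every one of the 17 resident Tcf21-traced and 12 resident CD31- CD45- cells. The 1 Postn+ resident CD31- CD45- cell, also uninjured, had it at 4.04. Among the larger classes its mean was highest in the untraced scar cells, at 2.18 ± 3.17, with 8 of 29 cells above the minimum. Activated Tcf21-traced cells had it above 5 TPM in 12 of 44 (27.3%). Col6a6, a further collagen VI chain, named here after its values were seen, went the other way in the Tcf21 lineage. It had 0 of 44 activated and 7 of 17 resident cells above the minimum and means of 0.0076 ± 0.050 and 2.13 ± 2.81. Of the 4 listed relatives, 1 was higher in that comparison, beside 33.4% of the tested genes, and 1 lower, beside 4.72%. Col6a6 had a mean of 2.64 ± 2.58 in the resident CD31- CD45- cells, 1.02 ± 2.11 in the Postn-negative and 0.87 ± 1.86 in the Postn-traced cells. Lower means in infarct cells were thus not particular to the Tcf21 lineage. Other infarct classes did have cells with Col6a6 above the minimum. There were 5 of 27 among Postn-traced, 4 of 24 among Postn-negative, 2 of 28 among untraced Postn+ and 6 of 29 among untraced scar cells. Among other uninjured cells, 5 of 12 resident CD31- CD45- and 2 of 3 Postn+ resident Tcf21+ cells had it above the minimum. A count of 0 of 44 allows a share of up to 8.04%. Against activated Tcf21-traced cells, untraced scar cells had 2 of the 4 listed relatives higher, beside 1.96% of the tested genes, and 0 lower, beside 26.3%, with a median of 1.03. They were Col6a6 by 1.43 and Col6a5 with a mean of 1.30 beside activated cells all listed at 0, and each was above the minimum in only 6 of the 29 scar cells, a class with 6 shallow cells. Of the other fibril-associated collagens, 4 of 7 were listed and 0 passed 1 log2 unit in any of the 8 comparisons.

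Genes for proteins on the fibril surface were mixed. Of 8, 4 were higher in the Postn-traced than in the Postn-negative cells: Fn1, the fibronectin gene, by 5.98, Matn2, which encodes the filament-forming adaptor matrilin, by 2.50, Fmod by 1.97 and Bgn by 1.51, the last 2 being small leucine-rich proteoglycans. Tnxb, whose product binds collagen XII and XIV, was lower at -1.49. The median of the list was 1.06, and of all tested genes 31.9% were higher and 4.42% lower in this comparison. Of 10 receptor genes 3 were higher, Itga11 (1.84), Ddr1 (1.15) and Itgb1 (1.11), and 2 were lower, the discoidin-domain receptor gene Ddr2 (-1.75) and Antxr2 (-1.72), whose product takes up collagen VI, with a median of 0.32, so the share of higher receptor genes was close to that of all tested genes. In activated over resident Tcf21-traced cells 3 of the 10 receptor genes were higher, beside 33.4% of the tested genes. None was lower, beside 4.72%, and the median was 0.04, so these counts too were near the general shares. Itgb1 was higher there by 1.64 and Ddr2 by 1.83, while Itga11 differed by -0.09. Of the cell type lists in the first comparison, smooth muscle had 2 of 6 genes higher, Tagln (4.17) and Acta2 (3.29), and a median of 0.09, and the pericyte list had 1 of 6, Pdgfrb (2.16), and a median of 0.08. The fibroblast list had Col1a1 and Col3a1 higher and Tcf21 lower (-2.68), with a median of 0.06. The other 5 lists had 0 genes past 1 log2 unit. Beside the 31.9% of tested genes that were higher, a count of 2 of 6 is near the general share and 1 of 6 below it.

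**Figure D5:**
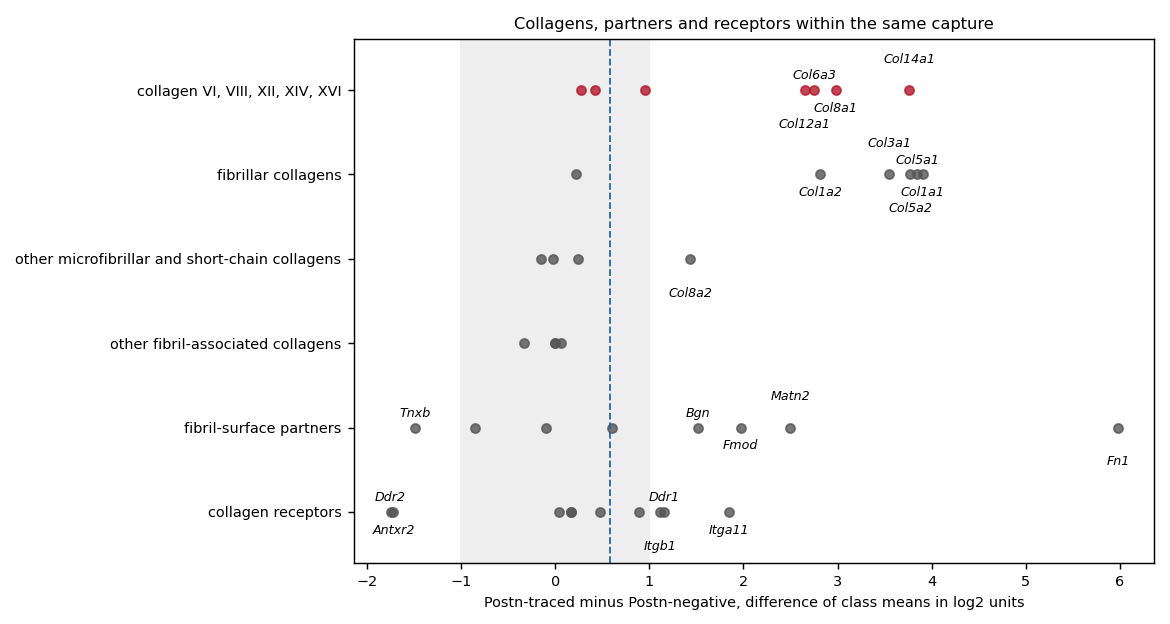
Difference of Postn-traced and Postn-negative class means in log2 units (x axis) for the 7 genes (red) and for fibrillar collagens, relatives, fibril-surface partners and receptors (grey points), with names for those past 1 log2 unit and the median of all tested genes, 0.58, as a dashed line. Of the 6 fibrillar collagens 5 lie between 2.81 and 3.90, and the 7 genes between 0.27 and 3.76.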

How the data were processed

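Values were deposited by the authors on a log2 scale, as log2 (TPM+1), in 1 table with a column for each single cell. Per the submitters' processing notes, Bowtie 1.0.0, eXpress 1.5.1 and the mouse build mm10 were used; the annotation is not given in the sources used here. The title of the table names FPKM and its header TPM. Back on the linear scale each cell summed to between 999257 and 1000000, so the values were read as TPM, which keeps no read depth. A further 3 columns without a sample were not used.

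Classes came from the labels and captures from the cell names. Class means of the deposited log2 values were subtracted, and a gene was called past 1 log2 unit. Tested genes were above 5 TPM in at least 10% of cells. Shares have exact 95% Clopper-Pearson intervals. Named were the 7 genes, listed genes past 1 log2 unit in the first comparison, and for each of the 7 the 3 genes of highest likeness, of which 1 without a gene symbol is given by its value only. Members and lists were chosen with earlier results of these data known. Of the other lists, Col10a1, Col19a1, Col21a1, Col22a1, Cdh5, Vwf, Adgre1 and Nppa had no line in the table.

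Alternatives were linear means, medians, pseudocounts of 0.1 and 5, centring of each cell, minimums of 1 TPM or any value over 0, shallow cells left out, other gene filters and other choices of cells for a class. Those on cells with 2000 to 3000 genes and on cells with at least 3 fibroblast genes were chosen after seeing the data. No difference has a statistical test; the code for class means and likeness was tested on simulated data with known answers. Gene positions are from GENCODE (GRCm38) and promoters from RefSeq (GRCm38.p6), in which 5 of the 7 genes had an entry. Computing used SciPy 1.17.1, pandas 2.3.3 and NumPy 2.4.6 under Python 3.11.15, and plots Matplotlib 3.10.9.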

Additional observations from a re-analysis of the deposited data

How the results depend on the processing

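Each class is 1 sample, the number of genes detected differs between classes, and most comparisons cross captures, so none of the differences has a replicate check. No paired analysis was possible because no result comes from a test and no number ties cells of different classes. Centring each cell shifted the median of all tested genes by 0.52 in Postn-traced against Postn-negative cells and by -0.84 in untraced scar against activated Tcf21-traced cells. Both wider gene filters lowered all 16 shares of genes past 1 log2 unit. Over the 8 comparisons, shares of higher genes ran from 1.96% to 38.1% of the tested genes, from 1.11% to 20% of genes above 5 TPM in 1 cell and from 1.02% to 18.3% of all genes listed, and shares of lower genes from 4.42% to 26.3%, from 2.35% to 13.2% and from 2.15% to 12.1%. How near a count lies to the general share thus depends on this filter. A lower minimum can only raise a share of cells: at 1 TPM 4 of 70 shares, and with any value over 0 17 of 70, passed the upper end of their interval. Col12a1 then went from 30.3% of all cells to 38.9% and 47.6%, with 16.7% of Postn-negative and 65.9% of activated Tcf21-traced cells over 0, and cells with all 3 collagen VI chains from 126 to 136 and 144.

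More differences changed sign among cells of 2000 to 3000 genes, where 5 Postn-traced cells remained, than under any other setting. There 17 of the 56 differences did so, and of the 21 past 1 log2 unit these 8: Postn-traced against Postn-negative cells, Col6a3 (-0.87); activated against resident Tcf21-traced cells, Col16a1 (-0.054); Postn-traced against resident Tcf21-traced cells, Col6a3 (-1.99), Col8a1 (-1.18) and Col16a1 (-1.05); activated Tcf21-traced against Postn-traced cells, Col6a3 (1.44); Postn-negative against resident CD31- CD45- cells, Col6a1 (-0.20); and untraced scar against activated Tcf21-traced cells, Col8a1 (1.23). In that range the counts past 1 log2 unit, in the same order of comparisons, were 3 higher and 1 lower; 2 and 0; 3 and 4; 3 and 2; 1 and 1; and, for the scar cells, 3 and 1. They were 4 and 0 for untraced Postn+ against activated Tcf21-traced cells and 1 and 0 between the resident classes. Of the tested genes, 17.9% to 27.4% were then higher and 14.3% to 26.3% lower. The cause was not tested.

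Of the other settings, only counts that moved by more than 1.5 times, or from or to 0, are given, each with the share of tested genes in that direction. With linear means 12 of the 56 differences changed sign, of those past 1 log2 unit Col8a1 in the scar comparison (0.043), which then had 0 lower (26.7%). Counts became 2 higher (32.6%) for activated against resident Tcf21-traced cells, 1 lower (16.8%) for activated Tcf21-traced against Postn-traced cells, 0 lower (22.2%) for Postn-negative against resident CD31- CD45- cells and 1 higher (35.1%) between the resident classes. With medians 10 differences changed sign, and counts became 1 higher (9.37%) for activated Tcf21-traced against Postn-traced cells, 2 higher (12%) for Postn-negative against resident CD31- CD45- cells, 1 higher (2.28%) and 5 lower (23.7%) for the scar cells and 1 higher (9.58%) between the resident classes. With a pseudocount of 0.1 they became 4 higher (18.8%) for untraced Postn+ cells, 4 lower (44%) for the scar cells and 1 lower (18.2%) between the resident classes. With a pseudocount of 5 they became 1 lower (4.46%) for activated Tcf21-traced against Postn-traced cells, 0 higher (11%) and 0 lower (4.68%) for Postn-negative against resident CD31- CD45- cells and 0 lower (13.3%) for the scar cells. With centred cells they became 4 higher (15.9%) for untraced Postn+ and 6 lower (67.7%) for scar cells. Leaving out shallow cells, which removed cells only from the untraced Postn+ and scar classes, gave 1 higher (7.38%) and 0 lower (12.6%) for the scar cells. Untraced Postn+ cells of all captures gave 0 higher (5.01%), and cells with 3 fibroblast genes 0 higher (19.2%) for Postn-negative against resident CD31- CD45- cells. The cause of these changes was not tested.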
